A study of Mus musculus with 6 samples.

Results

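The 33 genes described here mark myeloid cells, that is macrophages, monocytes and granulocytes, or mark leukocytes in general. They were chosen by name, and every one was read by at least 1 probe set that the array annotation assigns to a single gene. They hold 57 probe sets among the 45101 of the array and are 33 of 18193 genes measured. Where a gene had several, the one with the highest average level was kept. Expression was measured in Flk1-positive cells taken from embryoid bodies after 4 days, which the labels treat as the culture equivalent of the haemangioblast, the shared precursor of blood and endothelium. The bodies were grown without Leukemia Inhibitory Factor from mouse embryonic stem cells that were either Ldb1+/+ (wild-type) or Ldb1-/- (knockout), with 3 arrays of each genotype, numbered 1 to 3 in both. LDB1 is an adaptor protein that works in blood cells with GATA1, TAL1 and LMO2. The labels do not give the deleted part of Ldb1 or the number of stem cell clones, and they call the arrays biological replicates without saying how the cultures were separated. Ldb1 itself read 7.78, 7.31 and 8.31 in wild-type and 7.25, 6.60 and 8.25 in knockout arrays, groups that overlapped. It was lower in each pair, by 0.53, 0.71 and 0.06, but missed the threshold in both fits (limma, adjusted p = 1.00, or 0.481 with the replicate block, where the interval ran from −0.82 to −0.05). Whether this probe set lies in the deleted part is not given in the labels.

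Myeloid cells arise in the embryo in waves from the yolk sac and later from definitive stem cells. Their program rests on the transcription factor PU.1, encoded by Spi1, on C/EBP factors and on receptors for colony-stimulating factors, and its late products are lysosomal enzymes, granule proteases and the phagocyte oxidase. Pan-leukocyte genes such as Ptprc, which encodes the phosphatase CD45, are switched on as blood cells form and are not expressed in most other tissues. The haemangioblast stage comes before these cells appear. The deposited values are log2 levels, so a difference of 1 is a 2-fold change, and levels of different probe sets cannot be ranked against each other. Each array's own quartiles served as the yardstick. Lower quartiles ran from 4.22 to 4.28, apart from 4.37 on wild-type replicate 3, and medians from 5.71 to 5.77.

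Most leukocyte genes read in the lower part of the arrays in both genotypes. Of the 33 genes, 21 exceeded the lower quartile in all 6 arrays (63.6%), against 78.9% of all genes. Only 5 of 33 exceeded the median in all 6 arrays (15.2%, against 57.2% of all genes), namely Laptm5, Coro1a, Spn, Csf1r and Cd68. The 7 genes that did not reach the lower quartile in any array were Ptprc, Cd48, Cx3cr1, Aif1, Itgam, Ctss and Cybb. A further 5, Itgb2, Csf2rb, Csf3r, Lyz1 and Mpo, exceeded it in some arrays. As a yardstick for this reading, 9 of 13 measured lymphoid markers also exceeded the lower quartile in all 6 arrays, among them Cd3e and Pax5, so that a value above it does not by itself show expression. In bulk RNA, fewer cells of a type and less RNA per cell cannot be told apart.

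**Figure D1:**
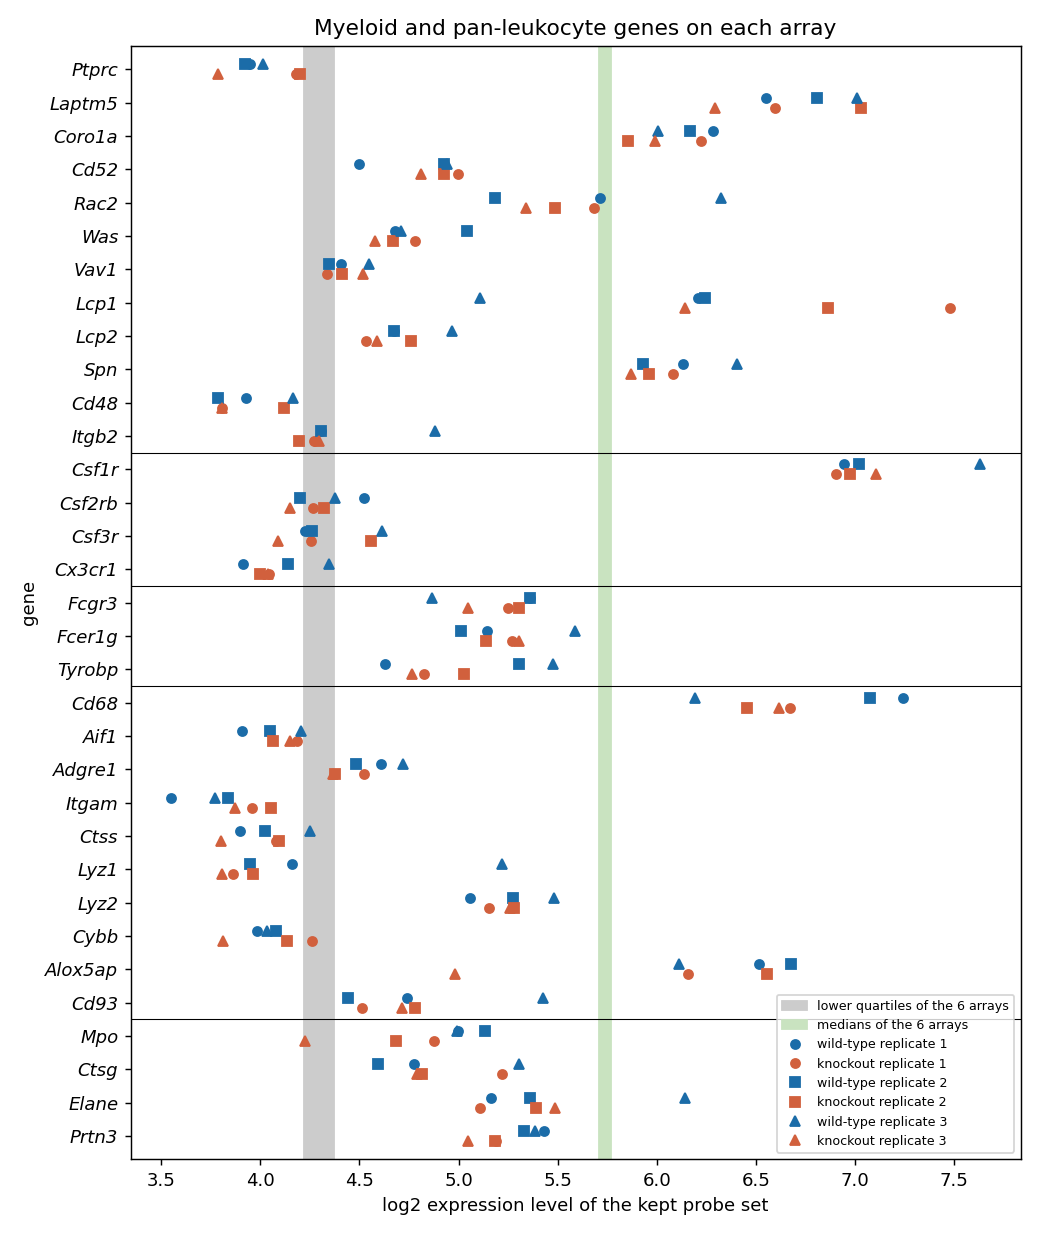
Log2 expression level (horizontal axis) of the kept probe set of each of the 33 genes on each of the 6 arrays, ordered by role, with wild-type arrays in blue and knockout arrays in orange and 1 marker shape per replicate number. Grey and green bands span the lower quartiles (4.22 to 4.37) and the medians (5.71 to 5.77) of the arrays. Genes such as Ptprc and Itgam lie left of the grey band, and Csf1r, Laptm5 and Cd68 lie right of the green band on every array.

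No member passed the test between genotypes. With limma and Benjamini-Hochberg adjustment over all genes, 0 of 33 were called without a block, where 4 genes in all (0.022%) were called, and 0 of 33 once replicate numbers entered as a block, where 62 genes (0.341%) were called. At an unadjusted p under 0.05 the counts were 0 of 33 without the block (3.85% of all genes) and 3 of 33 with it (8.94% of all genes). These 3 were Lcp1, which was higher in knockout cells, and Mpo and Alox5ap, which were lower. The arrays of the same number were alike beyond their genotype, so both fits are given. Across members the standard error of the difference without the block lay between 0.118 and 0.426. For 30 of 33 the 95% interval without the block stayed within 1 log2 unit on either side of 0. Lcp1, Alox5ap and Lyz1 were the exceptions, so for these genes 6 arrays leave a 2-fold difference within the interval. The 30 include the 7 genes that did not reach the lower quartile in any array. For values that low, a narrow interval does not bound a change in the transcript.

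**Figure D2:**
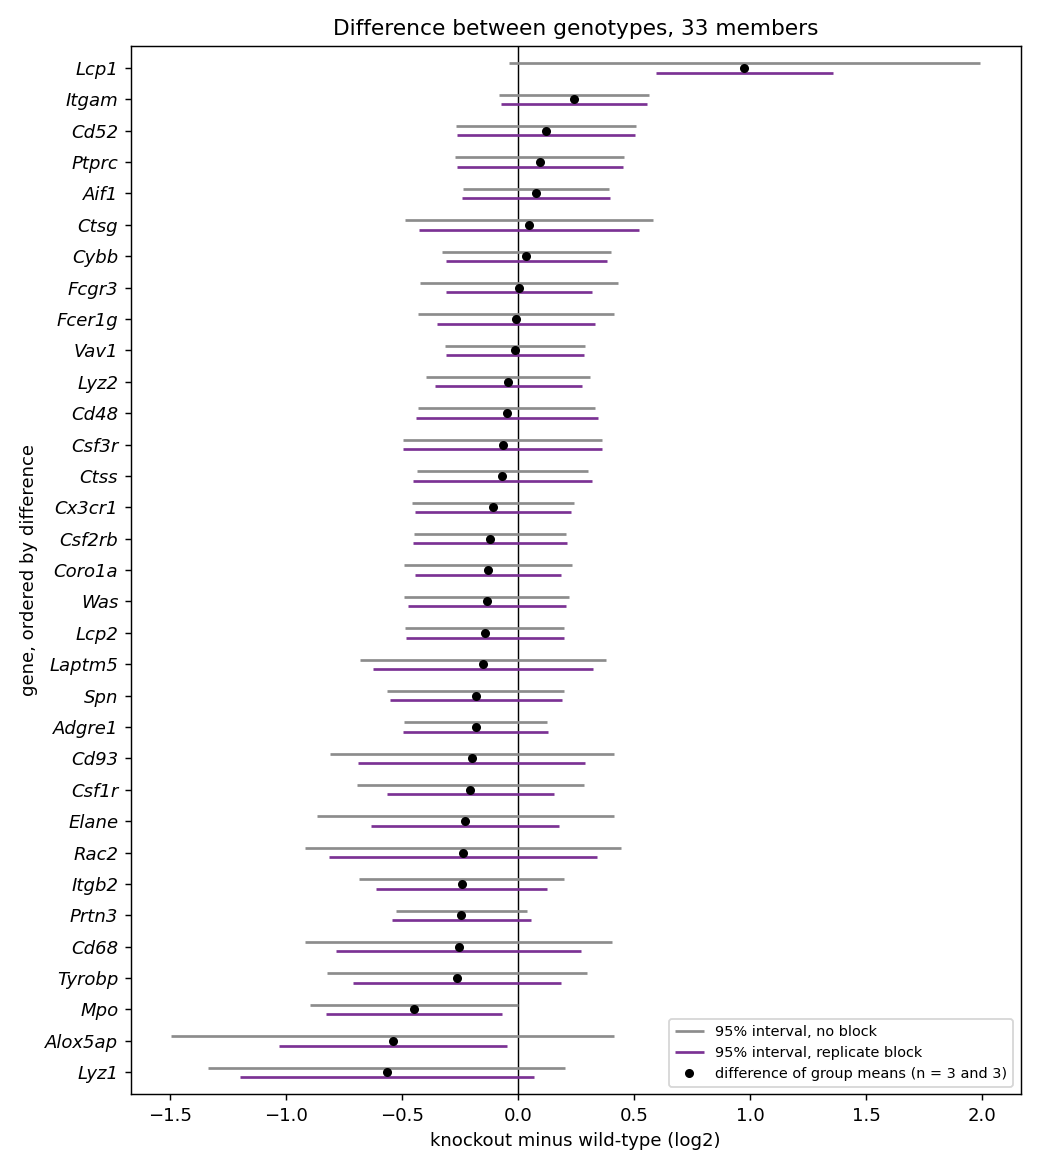
Difference between knockout and wild-type means (log2, horizontal axis) for each of the 33 genes, in order of size, with the limma 95% interval without a block in grey and with the replicate block in purple. All grey intervals include 0. The purple intervals of Lcp1, Mpo and Alox5ap do not, with bounds of 0.59 and 1.36 for Lcp1.

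The leukocyte signalling and cytoskeleton genes held the highest difference among the members. Lcp1 encodes L-plastin, which bundles actin in leukocytes and is also made by some non-blood cells. It read 6.21, 6.24 and 5.11 in wild-type and 7.48, 6.86 and 6.14 in knockout arrays of number 1, 2 and 3. The knockout array was higher in each pair, by 1.27, 0.62 and 1.04, yet the groups overlapped, since knockout replicate 3 lay below wild-type replicates 1 and 2. The means were 5.85 ± 0.65 and 6.83 ± 0.67 (SD, n = 3), a 1.97-fold difference (0.98, SE 0.43; limma, adjusted p = 1.00, or 0.0910 with the replicate block). In the blocked fit the Lcp1 difference passed with both arrays of number 2 left out (1.15, limma, adjusted p = 0.00855). It also passed with both of number 3 left out (0.95, limma, adjusted p = 0.00474), but not with both of number 1 left out. In the fits that called Lcp1, far more genes in all passed than with all arrays, as counted in the closing section. A second Lcp1 probe set read 5.01, 5.16 and 5.26 in wild-type and 6.18, 4.92 and 5.62 in knockout arrays. It was higher in pairs 1 and 3 and lower by 0.24 in pair 2, so the probe sets did not move together in every pair. Averaged over both, the Lcp1 difference was 0.70 (limma, adjusted p = 1.00, or 0.325 with the replicate block).

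The other genes of this group differed by at most 0.24 in either direction. Laptm5, a lysosomal membrane protein of blood cells, read 6.55, 6.81 and 7.01 in wild-type and 6.60, 7.03 and 6.29 in knockout arrays, so the groups overlapped. Its other 4 probe sets correlated with the kept one by −0.27 to 0.20 over the 6 arrays. Rac2, the haematopoietic Rac GTPase, read 5.71, 5.18 and 6.32 against 5.68, 5.49 and 5.34. Here wild-type replicate 3 was the highest array and accounted for most of the difference of −0.24 (limma, adjusted p = 1.00). Coro1a encodes an actin regulator of leukocytes. Its kept probe set was lower in each pair by 0.06, 0.31 and 0.02, at 6.15 ± 0.14 and 6.02 ± 0.19 (SD, n = 3). Another Coro1a probe set, correlated with it by 0.96 over the 6 arrays, was lower in pairs 1 and 2 but higher by 0.22 in pair 3. The remaining Coro1a probe set was higher in each pair, by 0.149, 0.005 and 0.046, but did not exceed the lower quartile on any array. Spn, the sialomucin CD43, stood at 6.15 ± 0.24 and 5.97 ± 0.11. The antigen-receptor signalling genes Was, Vav1 and Lcp2 read between 4.33 and 5.04 on all arrays, and the surface protein gene Cd52 between 4.50 and 5.00. Itgb2, the beta chain shared by the leukocyte integrins, was lower in each pair with groups that did not overlap, at 4.31, 4.30 and 4.88 against 4.27, 4.20 and 4.30, all close to the lower quartile except wild-type replicate 3. Ptprc read between 3.79 and 4.20 on all arrays and Cd48 between 3.79 and 4.16.

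Among the receptors only that for CSF1 read above the array median. Csf1r, needed for macrophages, read 6.94, 7.02 and 7.63 in wild-type and 6.90, 6.97 and 7.10 in knockout arrays. The knockout array was lower in each pair, by 0.04, 0.05 and 0.53, so most of the difference of −0.20 (SE 0.21; limma, adjusted p = 1.00) lay in pair 3, and the groups overlapped. Its 3 probe sets gave differences of −0.20, −0.09 and 0.04. Csf2rb, the shared beta chain of the receptors for GM-CSF, IL-3 and IL-5, read between 4.15 and 4.52, Csf3r, the G-CSF receptor gene, between 4.09 and 4.61, and the chemokine receptor gene Cx3cr1 between 3.91 and 4.35. Csf3r exceeded the lower quartile on all 3 wild-type arrays and 1 knockout array, Csf2rb on 2 and 1, and Cx3cr1 on 0 of 6. The Fc receptor and adaptor genes read between the lower quartile and the median. Fcgr3 averaged 5.20 ± 0.29 in wild-type and 5.20 ± 0.14 in knockout cells, Fcer1g at 5.25 ± 0.30 and 5.24 ± 0.09, and Tyrobp at 5.14 ± 0.45 and 4.87 ± 0.14 (SD, n = 3).

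The macrophage genes with a level above the median were Cd68 and, except on knockout replicate 3, Alox5ap. Cd68, a lysosomal glycoprotein, read 7.24, 7.08 and 6.19 in wild-type and 6.67, 6.46 and 6.61 in knockout arrays. It was lower in knockout cells in pairs 1 and 2, by 0.57 and 0.62, and higher in pair 3 by 0.42, with a mean difference of −0.26 (SE 0.28; limma, adjusted p = 1.00, or 0.889 with the replicate block). Without both arrays of number 3 the blocked fit called it, at −0.60 (limma, adjusted p = 0.0198). That fit rests on pairs 1 and 2 only and leaves out the only pair in which Cd68 was higher. Far more genes in all passed in it than with all arrays, as counted in the closing section. Cd68 lies on chromosome 11, as do Mpo and Lcp2. Over the 1443 genes of that chromosome the median difference was −0.17 and 80.4% were lower in knockout cells; its part in these values was not tested. Alox5ap, which presents arachidonic acid to the enzyme that starts leukotriene synthesis, read 6.52, 6.68 and 6.11 in wild-type and 6.15, 6.55 and 4.98 in knockout arrays. Its difference of −0.54 (SE 0.40; limma, adjusted p = 1.00, or 0.490 with the replicate block) came mostly from knockout replicate 3, without which the Alox5ap difference was −0.08.

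The remaining macrophage genes lay lower on the arrays. The lysozyme genes Lyz1 and Lyz2 are near-identical neighbours, so their probe sets can share transcripts. Lyz2 read 5.06, 5.28 and 5.48 in wild-type and 5.15, 5.28 and 5.26 in knockout arrays, which overlapped. Lyz1 read 4.16, 3.95 and 5.22 against 3.86, 3.96 and 3.81, so that its difference of −0.56, the lowest among the members, rested on wild-type replicate 3, the only array above its lower quartile. Without that array the Lyz1 difference was −0.18, and its probe set that is not of the cross-reading kind gave −0.02. Cd93, also an endothelial gene, had 5 probe sets, of which 3 were lower and 2 higher in knockout cells, and the kept one read between 4.44 and 5.43. Adgre1, the macrophage surface marker gene, was lower in each pair but by no more than 0.36, at 4.60 ± 0.12 and 4.42 ± 0.09 (SD, n = 3). Itgam, which encodes the integrin CD11b, was higher in each pair with groups that did not overlap, at 3.55, 3.84 and 3.77 against 3.96, 4.05 and 3.87. All 6 values lay below the lower quartiles. Aif1, Ctss and Cybb, the catalytic subunit gene of the phagocyte oxidase, read between 3.80 and 4.26 on all arrays.

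Among the 4 granule genes, 3 read lower in knockout cells, against 25 of all 33 members and 53.7% of all genes. Groups did not overlap for 2 of these, where 4.47% of all genes were lower without overlap, and 0 passed the test. Prtn3, a serine protease of neutrophil granules, read 5.43, 5.33 and 5.38 in wild-type and 5.19, 5.18 and 5.05 in knockout arrays. The groups did not overlap, and the difference was −0.24 (SE 0.12; limma, adjusted p = 1.00, or 0.688 with the replicate block). Mpo, the myeloperoxidase gene of early granulocytes and monocytes, read 5.00, 5.13 and 4.99 against 4.87, 4.68 and 4.22. Here too the groups did not overlap, and knockout replicate 3 lay just below its array's lower quartile of 4.23. The difference was −0.45 (SE 0.19; limma, adjusted p = 1.00, or 0.454 with the replicate block). Elane, neutrophil elastase, read 5.16, 5.36 and 6.14 in wild-type and 5.11, 5.39 and 5.48 in knockout arrays, so the difference of −0.23 came from wild-type replicate 3. Ctsg, cathepsin G, stood at 4.89 ± 0.37 and 4.94 ± 0.24 (SD, n = 3).

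**Figure D3:**
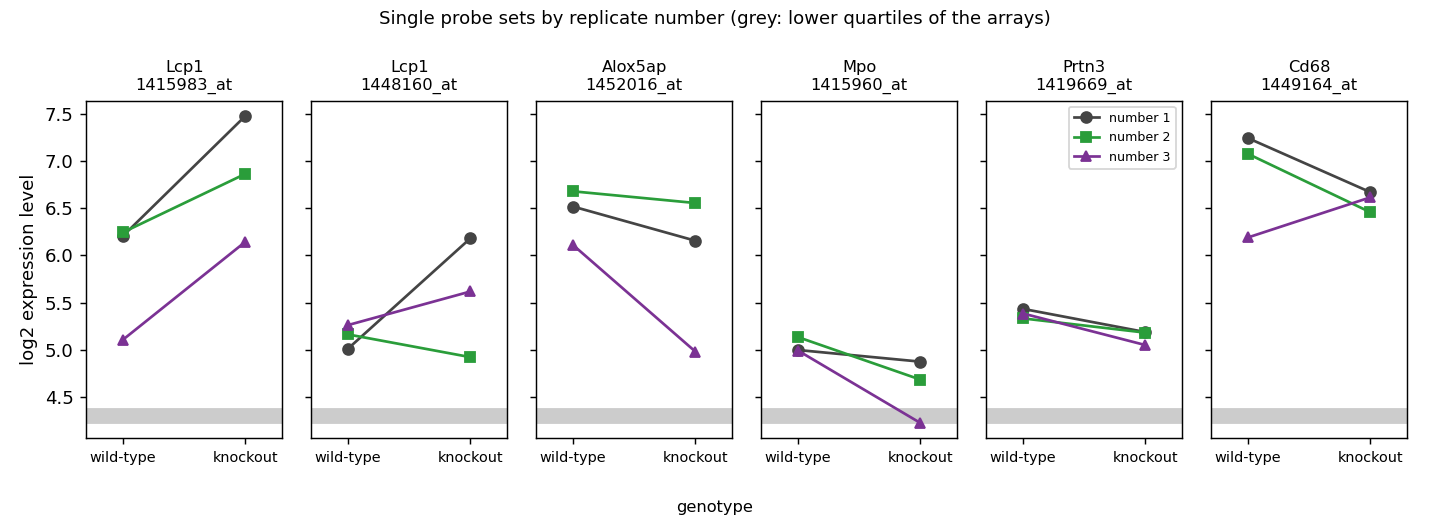
Log2 expression level (vertical axis) of 6 probe sets in the wild-type and knockout array of each replicate number, joined by lines, with the lower quartiles of the arrays in grey. The kept Lcp1 probe set was higher in the knockout array of each pair and its second probe set in pairs 1 and 3, and Cd68 was lower in pairs 1 and 2 and higher in pair 3.

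Promoters are shown for Prtn3 and Mpo, whose groups did not overlap, for Elane, the neighbour of Prtn3, and for Lcp1, the member with the highest difference. RefSeq windows on GRCm38.p6, from 250 bases before to 50 after an annotated start, were found for 24 of the 33 genes (28 windows). They were searched on both strands for 3 short motifs. The letters GAGGAA, a core that PU.1 binds, occurred in 17 of the 28 windows (60.7%), against 28.3% of all 32851 windows. Windows of the same gene are not independent, and the overlapping Fcgr3 windows share the same match. The GATA motif, spelled AGATAA, occurred in 3 (10.7%, against 11.2%). The RUNX motif, spelled TGTGGT, occurred in 7 (25%, against 16.8%). A match describes letters only and is not a bound site. The windows of Prtn3 (chr10:79879417-79879716, plus strand), its neighbour Elane (chr10:79886062-79886361, plus strand), Mpo (chr11:87793534-87793833, plus strand) and the upstream start of Lcp1 (chr14:75130873-75131172, plus strand) are shown 5′ to 3′, with matches in capitals.
Prtn3: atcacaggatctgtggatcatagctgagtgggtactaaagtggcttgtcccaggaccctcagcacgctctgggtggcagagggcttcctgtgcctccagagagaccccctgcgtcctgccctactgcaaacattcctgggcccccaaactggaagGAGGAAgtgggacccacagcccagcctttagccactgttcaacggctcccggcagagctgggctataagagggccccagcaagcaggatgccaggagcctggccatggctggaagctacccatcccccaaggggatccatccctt
Elane: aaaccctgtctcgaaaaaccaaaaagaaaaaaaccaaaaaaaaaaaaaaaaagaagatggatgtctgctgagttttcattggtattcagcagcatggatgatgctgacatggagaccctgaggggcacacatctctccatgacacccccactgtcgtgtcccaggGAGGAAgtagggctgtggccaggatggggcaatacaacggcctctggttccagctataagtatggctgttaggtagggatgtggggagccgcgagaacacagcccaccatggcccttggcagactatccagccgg
Mpo: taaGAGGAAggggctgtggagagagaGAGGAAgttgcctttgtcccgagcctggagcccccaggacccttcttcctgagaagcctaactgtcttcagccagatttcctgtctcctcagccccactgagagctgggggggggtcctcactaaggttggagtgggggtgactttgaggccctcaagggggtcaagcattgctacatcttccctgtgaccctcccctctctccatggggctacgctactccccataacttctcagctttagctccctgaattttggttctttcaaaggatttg
Lcp1: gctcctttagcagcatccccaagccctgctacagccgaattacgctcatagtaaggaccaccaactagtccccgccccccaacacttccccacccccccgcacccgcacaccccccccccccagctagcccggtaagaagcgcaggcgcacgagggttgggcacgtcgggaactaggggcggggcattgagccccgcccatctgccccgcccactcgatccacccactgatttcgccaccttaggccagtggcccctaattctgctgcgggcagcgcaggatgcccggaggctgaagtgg
The PU.1 matches began at position −95 of Prtn3, −85 of Elane, and −247 and −224 of Mpo, counted from the start site. Neither of the 2 annotated Lcp1 windows held any of the 3 motifs. Itgam, which read below the lower quartile on every array, had 3 PU.1 matches. Coro1a had 0 matches to any of the 3 motifs in its 2 windows. Whether matches go with the differences between genotypes was not tested.

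As a group the members were slightly lower in knockout cells, and this lay in 1 pair of arrays. Of 33 members 25 were lower, with a median difference of −0.13, against 53.7% lower and a median of −0.01 over all genes. Among the 6982 genes whose mean lay below the arrays' median, as for most members, 61.3% were lower, with a median of −0.04. The median was −0.03 in pair 1, 0.03 in pair 2 and −0.35 in pair 3, and 18, 12 and 29 members were lower in the 3 pairs. Without wild-type replicate 3 the median turned to 0.01, with 15 lower and 18 higher, and with array weights it was −0.00176. Wild-type replicate 3 was the highest of the 6 arrays for 19 of 33 members (57.6%), against 45.1% of those 6982 genes and 25.1% of all genes. Knockout replicate 3 was the lowest for 13 members. Over those 6982 genes the pair 3 median was −0.20 with 76.7% lower, while over the 11211 genes above that level it was 0.12. Wild-type replicate 3 also had an upper quartile of 7.92, below the 8.15 to 8.27 of the other arrays. The part of these array differences in the members' values was not tested.

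Few members differed in 1 direction throughout. By the kept probe set, those lower in each pair were 7 of 33, where 14.9% of all genes were, namely Coro1a, Itgb2, Csf1r, Adgre1, Alox5ap, Mpo and Prtn3. Those higher in each pair were 2 of 33, Lcp1 and Itgam, where 13.5% of all genes were. Groups did not overlap for 3 members that were lower, Itgb2, Mpo and Prtn3 (4.47% of all genes), and for 1 that was higher, Itgam (3.45% of all genes). Of these, Itgam read below the lower quartile on all 6 arrays and Itgb2 on 2 of them. By role, medians were −0.13 for the signalling and cytoskeleton genes, −0.11 for cytokine and chemokine receptors, −0.01 for Fc receptors and adaptors, −0.12 for macrophage genes and −0.24 for granule genes. In pair 3 each of these medians lay between −0.28 and −0.59.

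**Figure D4:**
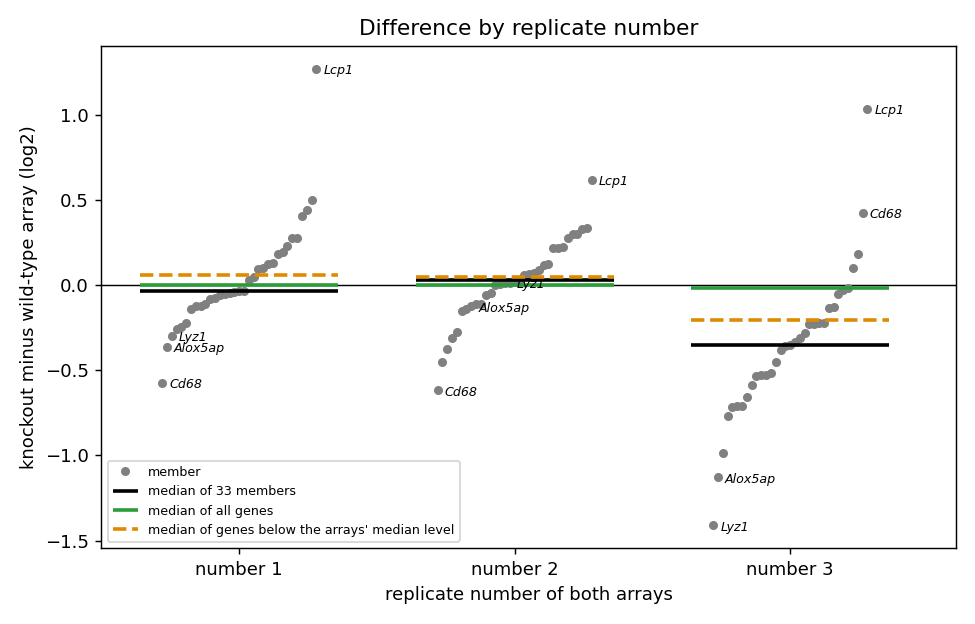
Knockout minus wild-type array (log2, vertical axis) for the 33 members at each replicate number, sorted within a number, with bars for the medians of the members (black), of all genes (green) and of genes below the arrays' median level (dashed orange). The black bar lies near 0 for numbers 1 and 2 and at −0.35 for number 3, where the orange bar is at −0.20, and Lcp1 is the highest point at every number.

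Among transcription factors of myeloid cells, 2 fell in the fit with the block. Of 18 listed myeloid transcription factors 16 were measured, 15 of them above the lower quartile and 10 above the median in all 6 arrays, beside 57.2% of all genes above the median. Without the block 0 were called by limma, with 4 at an unadjusted p under 0.05 (3.85% of all genes). These 4 were Myb, Ikzf1, Id2 and Gfi1. With the block 2 fell and 0 rose, where 0.341% of all genes were called in either direction. At an unadjusted p under 0.05 in the blocked fit, 5 were lower and 3 higher (8.94% of all genes in either direction). Myb, a regulator of blood progenitors, fell from 8.03, 8.82 and 7.88 to 6.16, 5.57 and 4.25 (blocked limma, adjusted p = 0.0238, unblocked 0.322). The kept Myb probe set, 1 of 3, is of the cross-reading kind, and the others are not given here. Ikzf1, which encodes Ikaros, fell from 8.85, 8.79 and 8.33 to 6.96, 6.94 and 5.30 (0.0238 and 0.413). In both the groups did not overlap. Runx1 differed by −0.88 and Id2 by 1.32 (blocked adjusted p = 0.0893 and 0.0910). Gfi1 differed by −1.10 with groups that did not overlap (blocked limma, adjusted p = 0.197, unblocked 0.627), and exceeded the lower quartile on 3 arrays. Spi1 read 5.54, 5.55 and 5.71 in wild-type and 5.55, 5.56 and 5.28 in knockout arrays, and Cebpa between 4.32 and 4.67 on all arrays. The median of the list was 0.02.

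Cytokine, oxidase and adhesion genes linked to the members gave 0 calls by limma in either fit, with 1 gene among them, Il6st, at an unadjusted p under 0.05 without the block. Of 13 measured cytokines and receptor chains 9 exceeded the lower quartile in all arrays, with a median difference of −0.01. Il6st, the signalling chain of the IL-6 receptor family, stood at 9.74 ± 0.30 and 10.36 ± 0.27 (SD, n = 3; limma, adjusted p = 1.00, or 0.163 with the replicate block), and Csf1, the ligand of the receptor encoded by Csf1r, at 7.55 ± 0.29 and 7.29 ± 0.14. Of 5 measured oxidase partners, Cyba, the membrane partner of the subunit encoded by Cybb, stood at 9.32 ± 0.36 and 9.72 ± 0.35. The 8 measured integrin and adhesion genes had a median of −0.00. The 21 broadly expressed relatives of the members had a median of 0.00, with 17 above the median in all arrays. Rac1 read 12.33 ± 0.03 and 12.36 ± 0.16 and Ctsl, a relative of Ctss, 13.15 ± 0.08 and 13.15 ± 0.04.

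Markers of other cell types also differed between the pairs, in both directions. The 13 lymphoid markers had medians of 0.11, −0.03 and −0.33 in pairs 1, 2 and 3 and 0 calls by limma in either fit, with 0 at an unadjusted p under 0.05 in either. Their mean level per array lay between 5.08 and 5.28 in wild-type and between 5.04 and 5.17 in knockout arrays. Cd3g, Ms4a1 and Rag1 read below the lower quartile on every array, while Zap70 and Cd4 were among those above the median on every array. The members' mean level lay between 4.97 and 5.19 and between 4.83 and 5.02. Mean levels of different lists come from different probe sets and cannot be ranked against each other. Endothelial markers (12 measured, 0 called by limma, 0 at an unadjusted p under 0.05 without the block) had pair medians of 0.48, 0.14 and −0.44, and mean levels of 6.66 to 6.79 in wild-type and 6.12 to 7.13 in knockout arrays. Kdr, the gene of Flk1, read 12.12 ± 0.33 and 11.70 ± 0.44 (SD, n = 3; limma, adjusted p = 1.00, or 0.493 with the replicate block). It was lower in each pair, by 0.25, 0.81 and 0.20, and its blocked interval ran from −0.81 to −0.04. Of 8 erythroid markers, limma called 1 lower without the block, Hbb-bh1, and 2 with it, Hbb-y besides. The erythroid list's mean level was 5.82 to 5.97 in wild-type and 4.87 to 5.01 in knockout arrays. Its median difference was −0.29, with Hbb-bh1 at −3.89. Pluripotent cell markers had pair medians of 0.19, 0.09 and 1.16, highest in pair 3, and cardiac and nascent mesoderm markers of −0.72, −0.16 and −0.50. Among 7 pluripotent cell markers Dppa5a rose with the block (1.20; blocked limma, adjusted p = 0.0315), and among 10 cardiac and nascent mesoderm markers Hand2 fell (−2.70; blocked limma, adjusted p = 0.00103). Megakaryocyte, mast cell and visceral endoderm markers (7, 9 and 8 measured) gave 0 calls by limma in either fit, with 1, 0 and 0 at an unadjusted p under 0.05 without the block and medians of −0.16, 0.03 and −0.14. The part of these other cell types in the members' values was not tested.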

How the data were processed

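RNA of 6 samples was hybridised to Affymetrix mouse genome arrays. The deposited values are log2 expression levels per probe set, made by the authors with RMA in affy, per the submitters' processing notes, with no version printed; the genome build is not given in the sources used here. RMA as usually run brings arrays to 1 distribution, which narrows differences that affect most probe sets. Of 45101 probe sets, 34945 had exactly 1 gene in the platform annotation, 932 several and 9160 none, and 64 were controls.

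Genotypes were tested in limma 3.58.1 (lmFit, eBayes; R 4.3.3) across all 18193 genes, with Benjamini-Hochberg adjustment and a threshold of 0.05. The replicate number was added as a block in a second fit. Deviations from the genotype mean correlated by 0.698, 0.350 and 0.446 between arrays of the same number, each above 0.1, so the numbers were taken to pair the arrays; the labels do not say what they stand for. The p-values measure the spread between these samples. Levels were set against each array's lower quartile and median. The fits were tested on simulated data. Plots used matplotlib 3.10.9 (Python 3.11.15).

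The members and gene lists were chosen with earlier results of these data known. Of 150 listed companion entries 137 were measured, with Rac1 counted in both of its lists. Genes were named by a rule: all members, and from each other list those with the smallest blocked p under 0.05 and the highest means; those that no statement needed were left out. Spi1, Cebpa, Gfi1, Cd3e, Pax5, Cd3g, Ms4a1 and Rag1 fell outside it and were named after their values were seen.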

Additional observations from a re-analysis of the deposited data

How the results depend on the processing

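The members past the threshold were 0 without a block and in every alternative but those with 4 arrays named next. The exceptions were the replicate block without the arrays of number 2 (1, Lcp1) and of number 3 (2, Cd68 and Lcp1); these fits rest on 4 arrays. With all 6 arrays the replicate block changed no member's call. Of 710 values of single members under alternatives 58 had the opposite sign, and 19 of the members changed sign under some alternative. A value counted as turned only where both differences exceeded their standard error. This rule was set after seeing the data and gave 0, so it does not show that the members' directions were stable. Lcp1 stayed between 0.60 and 1.32. With each array left out in turn, the members' median lay between −0.16 and 0.01. Of the members, 5 exceeded the arrays' medians in all arrays, and 18 the lower quartiles with a gene's probe sets averaged or without probe sets that can read several transcripts.

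For all genes past the threshold the count, 4 without a block, was 62 with the replicate block, 63 with block and filter, 48 with block and averaged probe sets, 50 with block and without probe sets of several transcripts, 37 with a random block and 68 with array weights. With the replicate block and number 1, 2 or 3 left out they were 50, 267 and 815, and with 1 array left out 1 to 6. For the companion lists, genes past the threshold numbered 1 without a block and 6 with the replicate block, with block and filter, with array weights, and with the block and number 1 left out. They were 5 and 3 with the block and the other choices of probe set, 0 without those of several transcripts, 4 with a random block, 13 and 19 with the block and number 2 or 3 left out, and 0 to 2 with 1 array left out. The cause was not tested. The number of arrays limits precision.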
